A study of Mus musculus with 6 samples.

Results

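DNA methylation was examined at the mouse locus on chromosome 6 that holds Nanog, Dppa3 (also called Stella), Gdf3 and Apobec1. The 4 genes were chosen by name and position, out of 53758 annotated genes, together with the sequence between 122.4 and 122.9 Mb of the genome build GRCm38, which holds 6000 of the 21327445 CpG sites analysed. Whole-genome bisulfite sequencing reads a methylated cytosine as C and an unmethylated one as T, so the share of C at a CpG site gives its methylation level. All 3 groups were wild-type embryonic stem cell cultures of the strain 129S2/SvPasCrl according to the labels, with 2 biological replicates each, and the study describes the cells as female. For lines it derived, the study instead gives 129/sv females and transgenic reporter males of a mixed background as parents. Advanced pluripotent stem cells (ASCs) had been obtained from lines first derived with Activin A and bFGF and then moved to ABCL medium, which holds Activin A, BMP4, the GSK3 inhibitor CHIR99021 and leukaemia inhibitory factor. Naive embryonic stem cells (ESCs) were kept in 2i/LIF and epiblast stem cells (EpiSCs) represented the primed state. Some lines of the study carried a GFP reporter for Oct4 or for Stella, and the labels do not say which reporter, if any, the sequenced cells carried.

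Nanog is a homeodomain transcription factor of the pluripotency network. Dppa3 encodes a maternal factor that protects the maternal genome from demethylation in the zygote and restrains the maintenance methylation factor UHRF1. Gdf3 encodes a TGF-beta family ligand that uses the co-receptors and receptors of NODAL, and Apobec1 encodes a cytidine deaminase that edits RNA. Nanog, Dppa3 and Gdf3 are known as a cluster of genes that are active together in pluripotent cells, and methylation of CpG sites at a start is in general associated with silence of the gene. In these cells Gdf3 and Dppa3 read low in ASCs and high in EpiSCs from the promoter into most of the body. Nanog also read lower in ASCs than in EpiSCs. In EpiSCs, however, its promoter, exon 1 and intron 1 had middle levels as means, and the rest of the gene was high. The stretch just before the Nanog start had no methylated read in any group. Apobec1 was low in ASCs at its promoter and around exon 4 and partly methylated over its body as a whole.

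Sequences show where the CpG sites lie, with each CpG in capitals. They are from GRCm38.p6 as given by RefSeq, whose promoter table had entries for 2 of the 4 genes, Nanog and Apobec1. The first is the distal part of the Nanog promoter (chr6:122706568-122706867, plus strand), with 6 CpG sites, shown because it was methylated in EpiSCs. The second is the 250 bases before the RefSeq start of Nanog (chr6:122707239-122707488, plus strand), with 3 CpG sites, shown because it was unmethylated in all groups. The third is the 250 bases before the start of Apobec1 (chr6:122602445-122602694, minus strand), with 7 CpG sites.
Nanog distal promoter: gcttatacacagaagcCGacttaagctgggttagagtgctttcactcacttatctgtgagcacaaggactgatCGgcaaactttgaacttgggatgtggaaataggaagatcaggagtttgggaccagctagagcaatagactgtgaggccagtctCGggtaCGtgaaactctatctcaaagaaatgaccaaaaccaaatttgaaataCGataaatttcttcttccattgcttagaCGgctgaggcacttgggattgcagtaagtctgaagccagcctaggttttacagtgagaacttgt
Nanog promoter: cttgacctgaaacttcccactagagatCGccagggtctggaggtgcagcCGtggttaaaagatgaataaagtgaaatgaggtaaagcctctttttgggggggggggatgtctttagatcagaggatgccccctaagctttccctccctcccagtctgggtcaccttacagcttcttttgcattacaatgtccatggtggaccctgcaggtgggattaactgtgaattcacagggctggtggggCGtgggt
Apobec1 promoter: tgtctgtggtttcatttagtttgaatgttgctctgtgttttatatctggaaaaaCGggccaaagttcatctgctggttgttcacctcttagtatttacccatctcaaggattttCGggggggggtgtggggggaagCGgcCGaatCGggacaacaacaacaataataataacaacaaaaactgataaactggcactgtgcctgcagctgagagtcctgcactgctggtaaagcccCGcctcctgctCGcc

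The libraries held between 63803799 and 74925271 CpG reads, or between 2.96 and 3.46 reads on average for each listed CpG. A read at 1 CpG site is called an observation, and a region's level is its methylated observations over all its observations. Across chromosomes 1 to 19 the level was 59.9% and 60.3% for the ASC libraries, 17.9% and 18.2% for the ESC libraries and 81.0% and 80.2% for the EpiSC libraries. Coverage of the locus relative to the mean of chromosomes 1 to 19 was 1.60 and 1.58 in the ESC libraries and between 1.11 and 1.17 in the other 4. Chromosome 6 as a whole had 1.40 times the relative coverage in ESCs that it had in the other groups, against ratios between 0.831 and 1.03 for the other 18 autosomes. The part of the chromosome 6 coverage in the levels of ESCs was not tested. The ratio of 0.831 was that of chromosome 12, where the EpiSC libraries had a raised relative coverage of 1.29 and 1.30. There the ASC libraries had 0.945 and 0.946 and the ESC libraries 0.930 and 0.932. Relative coverage of chromosome X was 0.499 and 0.494 in the ASC libraries, 0.367 and 0.380 in the ESC libraries and 0.628 and 0.615 in the EpiSC libraries, under that of the autosomes in every library, and the number of X copies was not tested. Relative coverage of the Dppa3 gene was 1.01 to 1.40 in ASCs and EpiSCs and 1.52 and 1.66 in ESCs, and whether reads of a Stella reporter are among them was not tested. Of the 6000 sites, 163 were not listed in at least 1 library, among them 3 of 104 at Nanog, 2 of 108 at Dppa3, 4 of 99 at Gdf3 and 8 of 244 at Apobec1.

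Promoters, taken as the 1000 bp upstream and the first 100 bp of the gene, were low in ASCs and ESCs and higher in EpiSCs at all 4 genes. Two-sided quasi-binomial tests were run where every library had at least 40 observations, and a difference was called at an adjusted p under 0.05 and at least 20 percentage points. Of the 4 promoters, 2 reached that minimum, Apobec1 and Nanog, and both were called lower in ASCs than in EpiSCs and higher in EpiSCs than in ESCs. Over the genome, 34.5% of 23697 tested promoters were called lower in ASCs than in EpiSCs, 52.9% higher in EpiSCs than in ESCs and 35.1% higher in ASCs than in ESCs. Neither promoter was called between ASCs and ESCs.

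The Nanog promoter (chromosome 6, 122706568 to 122707668, 18 CpG sites, 53 to 113 observations per library) read 5.97% and 4.41% in the ASC libraries, 0% and 1.03% in the ESC libraries and 53.4% and 45.3% in the EpiSC libraries. The EpiSC libraries stood above the other 4 with no overlap. ASCs were at 5.19% ± 1.10 and EpiSCs at 49.4% ± 5.76 (SD, n = 2), a difference of -44.16 points with an adjusted p of 3.39e-05 from the quasi-binomial model with limma-moderated dispersion. The 0% of the first ESC library rests on 113 observations, which allows a level of up to 2.65%.

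The middle level of EpiSCs was a mean of unlike stretches. More than 500 and up to 1000 bp before the Nanog start, EpiSCs read 82.6% and 79.3%, ASCs 12.9% and 7.89% and ESCs 0% and 1.85%. From 500 to 1 bp before the start, none of 163 observations over 7 sites was methylated in the 6 libraries, which allows a level of up to 1.84% over all of them. The 2 EpiSC libraries contributed 22 and 21 of these observations, so that each alone allows up to 13.6% and 14.3%. Methylation returned after the start, where the first 500 bp read 28.8% and 28.6% in EpiSCs, 20.3% and 20% in the ASC libraries and, in the ESC libraries, 8.24% and 7.35%. More than 500 and up to 1000 bp after the start, the 6 libraries read between 1.85% and 11.1%, and the EpiSC libraries, at 2.86% and 3.85%, lay within that range. In 500 bp to each side of the start, the difference between ASCs and EpiSCs was -4.31 points (adjusted p = 0.407, quasi-binomial model) and was not called.

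Single sites placed the edge within a short distance. Summed over the libraries of a group, the site 792 bp before the Nanog start had 11 of 11 methylated reads in EpiSCs, 1 of 12 in ASCs and 0 of 19 in ESCs. The sites 541 and 502 bp before the start had 3 of 6 and 1 of 5 methylated reads in EpiSCs. The next site, 491 bp before the start, had 0 of 7, and no site from there to 15 bp after the start had a methylated read in any group. In the printed sequences this is the difference between the distal stretch, which read 88.4% and 90.5% in EpiSCs, and the 250 bases before the RefSeq start, which read 0% in every library on 4 to 21 observations. The search for the SOX letters CATTGT and the OCT letters ATGCAAA on both strands found them 1 base apart in the unmethylated stretch, at bases 176 to 189 from its 5′ end and on the minus strand. CATTGT was present in 10.7% and ATGCAAA in 4.12% of the 32851 windows of 250 bases in the RefSeq table, and the pair with this spacing was present in 2 of them, both of Nanog. The spacing counted was the one found in the Nanog window, so a match at Nanog was given beforehand, and its rarity was not tested. No other printed sequence held either set of letters. A match of letters is a description of the sequence and not of binding.

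**Figure D1:**
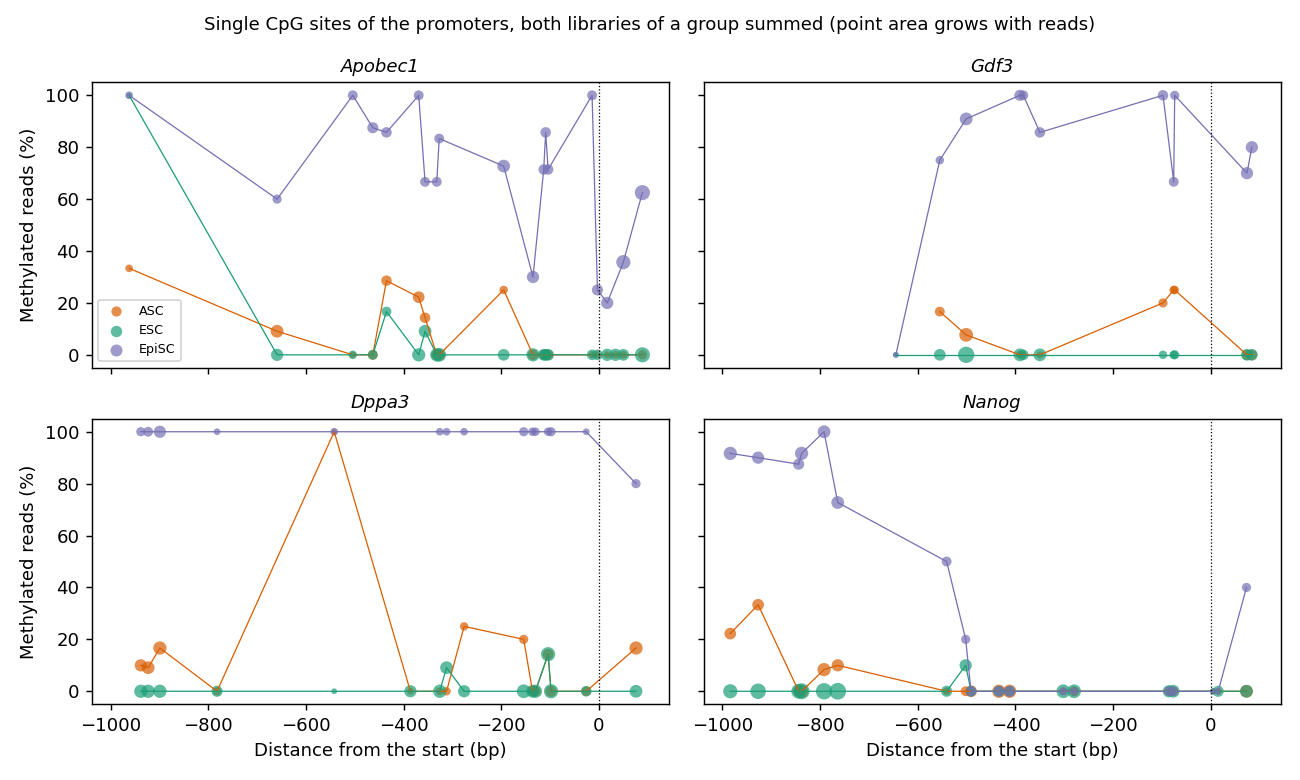
Methylated reads (%) at single CpG sites of the 4 promoters against the distance from the start (bp), with both libraries of a group summed and the point area growing with the number of reads. At Nanog the EpiSC line falls from 11 of 11 methylated reads at 792 bp before the start to 0 of 7 at 491 bp before it, while at Dppa3 it stays near the top across the window.

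The Dppa3 promoter (chromosome 6, 122625410 to 122626510, 16 CpG sites) read 11.9% and 6.98% in the ASC libraries, 2.06% and 1.37% in the ESC libraries and 97.3% and 100% in the EpiSC libraries. It had 27 to 97 observations per library and was not tested at the minimum of 40. Unlike Nanog, Dppa3 showed no unmethylated interval in EpiSCs. All 14 sites with reads before the start were methylated in every EpiSC read, on 2 to 10 reads per site. Around the start, in 500 bp on each side with 85 to 176 observations, EpiSCs read 99% and 97.9% and ASCs 11.9% and 16.5%. In that window the quasi-binomial test gave a difference of -84.26 points between ASCs and EpiSCs with an adjusted p of 6.03e-08. Another annotated start of Dppa3 gave 11.5% and 12.2% in the ASC libraries, against 99% and 97.7% in the EpiSC libraries.

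At the Gdf3 promoter (chromosome 6, 122609987 to 122611087, minus strand, 11 CpG sites) the libraries read 5.26% and 12.1% in the ASC libraries, 0% in both ESC libraries and 90.7% and 78.1% in the EpiSC libraries. The depth was 19 to 47 observations, so this window was not tested either, and the 0% of the ESC libraries allows up to 6.38% and 7.14%. The window of 500 bp on each side had 76 to 147 observations and read 0.901% and 3.30% in ASCs against 89.3% and 85.5% in EpiSCs. Methylation in ASCs was at or near 0 just inside the gene, with 1% and 0% in the first 500 bp, where ESCs read 0% and 0.763%. The study had named Dppa3 and Gdf3 from these samples, so their direction is not independent evidence.

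The Apobec1 promoter (chromosome 6, 122602344 to 122603444, minus strand, 20 CpG sites, 50 to 93 observations) read 8.47% and 6% in the ASC libraries, 1.08% and 2.25% in the ESC libraries and 55.0% and 75.4% in the EpiSC libraries. The EpiSC libraries differed from each other by more than at any other member, at 65.2% ± 14.4 (SD, n = 2), and both lay above all other libraries. The difference of ASCs from EpiSCs was -57.94 points with an adjusted p of 3.48e-05 in the quasi-binomial model. In EpiSCs the single sites ranged from 2 of 10 methylated reads at 17 bp after the start to 6 of 6 at 14 bp before it. In the printed 250 bases the levels were 5.56% and 0% in the ASC libraries, against 52.9% and 77.3% in the EpiSC libraries. Annotated Apobec1 starts inside the gene gave other values, and 3 of them read between 60.0% and 69.6% in the ASC libraries, while the one next to the outer start read 7.69% and 3.23%.

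**Figure D2:**
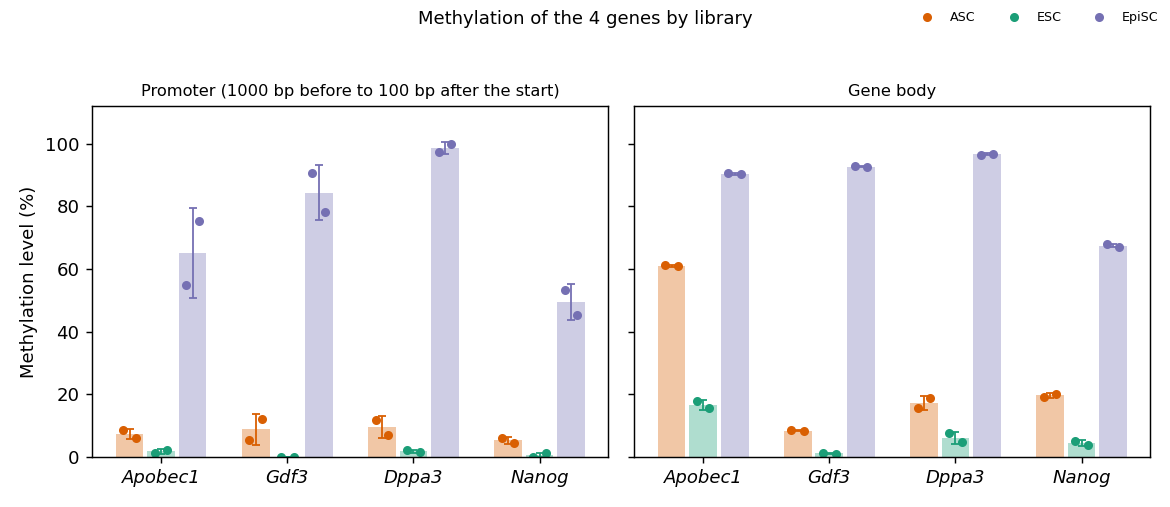
Methylation level (%) of the promoter and of the gene body of the 4 genes in each library, with points for libraries, bars for the mean of 2 and error bars for the SD. In the gene bodies ASCs sit between 8.17% and 20.1% at Gdf3, Dppa3 and Nanog and near 61% at Apobec1, and EpiSCs sit above ASCs in every panel.

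In the gene bodies, from 100 bp after the start to the end of the gene, ASCs were called lower than EpiSCs at all 4 genes. All 4 were tested, and 56.9% of 31623 gene bodies over the genome were called in that direction. EpiSCs were called higher than ESCs at all 4, as were 95.1% of gene bodies. Between ASCs and ESCs only Apobec1 was called higher in ASCs, whereas 87.5% of gene bodies were. The other 3 differed by 7.22 (Gdf3), 11.05 (Dppa3) and 15.07 points (Nanog), under the minimum of 20, with adjusted p-values of 3.66e-05, 7.55e-05 and 1.40e-06 from the quasi-binomial model.

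The Gdf3 body (88 CpG sites) read 8.39% and 8.17% in the ASC libraries, 1.11% and 1.01% in the ESC libraries and 92.8% and 92.6% in the EpiSC libraries. Replicates lay close together, and the difference of -84.43 points from EpiSCs had an adjusted p of 1.37e-11 in the quasi-binomial model. Counted from the most negative of the 31623 tested gene bodies, Gdf3 ranked 90, Dppa3 155, Nanog 1556 and Apobec1 7141. Intron 1 read 0.781% and 1.75% in ASCs against 91.0% and 94.0% in EpiSCs. Exon 2, at the far end of the gene, read 22.5% and 18.4% in the ASC libraries, against 98.0% and 93.8% in the EpiSC libraries.

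The Dppa3 body (92 CpG sites) read 15.6% and 18.7% in the ASC libraries, 7.45% and 4.73% in the ESC libraries and 96.4% and 96.9% in the EpiSC libraries, with a difference of -79.51 points (adjusted p = 3.48e-11, quasi-binomial model). Levels in ASCs were not even along the gene. Exon 1 and exon 2 read between 0% and 4.76% in ASCs, intron 1 read 9.62% and 12.9%, and intron 2 read 18.2% and 26.0%. Exon 4, at the 3′ end, read 78.6% and 61.9% in the ASC libraries and, in the ESC libraries, 41.3% and 29.3%, on 12 to 63 observations. In the ESC libraries this end read above their level over chromosomes 1 to 19.

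The Nanog body (86 CpG sites) read 19% and 20.1% in the ASC libraries, 5.16% and 3.83% in the ESC libraries and 67.8% and 67.2% in the EpiSC libraries, with a difference of -47.94 points (adjusted p = 3.23e-09, quasi-binomial model). Intron 1 averaged 38.6% and 45.6% in EpiSCs, against 4.62% and 5.33% in ASCs. In EpiSCs this was a mean of unlike parts. The 1 kb from 122708001 to 122709000 read 7.59% and 15.2%. The 2 kb window from 122710001, which extends into intron 2, read 94.6% and 89.3%. Intron 2 read 91.3% and 90.2% in EpiSCs. Exon 1 stood above its surroundings in ASCs, at 27.7% and 29.1% over 7 sites. It read 12.3% and 10% in ESCs and 42.9% and 40% in EpiSCs. The other exons of Nanog also read above the introns beside them in both ASC libraries. Exon 4 (18 sites) read 31.1% and 38.1% there, against 19.2% and 5.26% in intron 3 and 23.3% and 14.6% in intron 2. Exon 2, with 2 sites, read 58.3% and 50%, and exon 3, with 1 site, read 33.3% and 25%.

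Apobec1 had a body (224 CpG sites) with 61.3% and 60.9% in the ASC libraries, 17.8% and 15.5% in the ESC libraries and 90.7% and 90.3% in the EpiSC libraries. Exon 1, at the start, read 0% in both ASC libraries, on 13 and 21 observations, which allow up to 23.1% and 14.3%, against 40% and 61.2% in the EpiSC libraries. Exon 4, inside the gene, read 20.8% and 17.1% in the ASC libraries, on 24 and 35 observations, against 83.7% and 100% in the EpiSC libraries. The difference of ASCs from EpiSCs over the body was -29.37 points (adjusted p = 2.87e-09) and from ESCs 44.46 points (adjusted p = 1.61e-11), both from the quasi-binomial model. With the ESC mean set to 0 and that of EpiSCs to 1, ASCs stood at 0.602 ± 0.00402 at Apobec1, 0.239 ± 0.0121 at Nanog, 0.122 ± 0.0247 at Dppa3 and 0.0787 ± 0.00166 at Gdf3 (SD over 2 ASC libraries). The median over 30087 gene bodies with a span of at least 20 points was 0.660, with quartiles of 0.553 and 0.729. Apobec1 lay within those quartiles and the other 3 lay below the lower one. Whether the positions of the genes differ from each other was not tested.

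**Figure D3:**
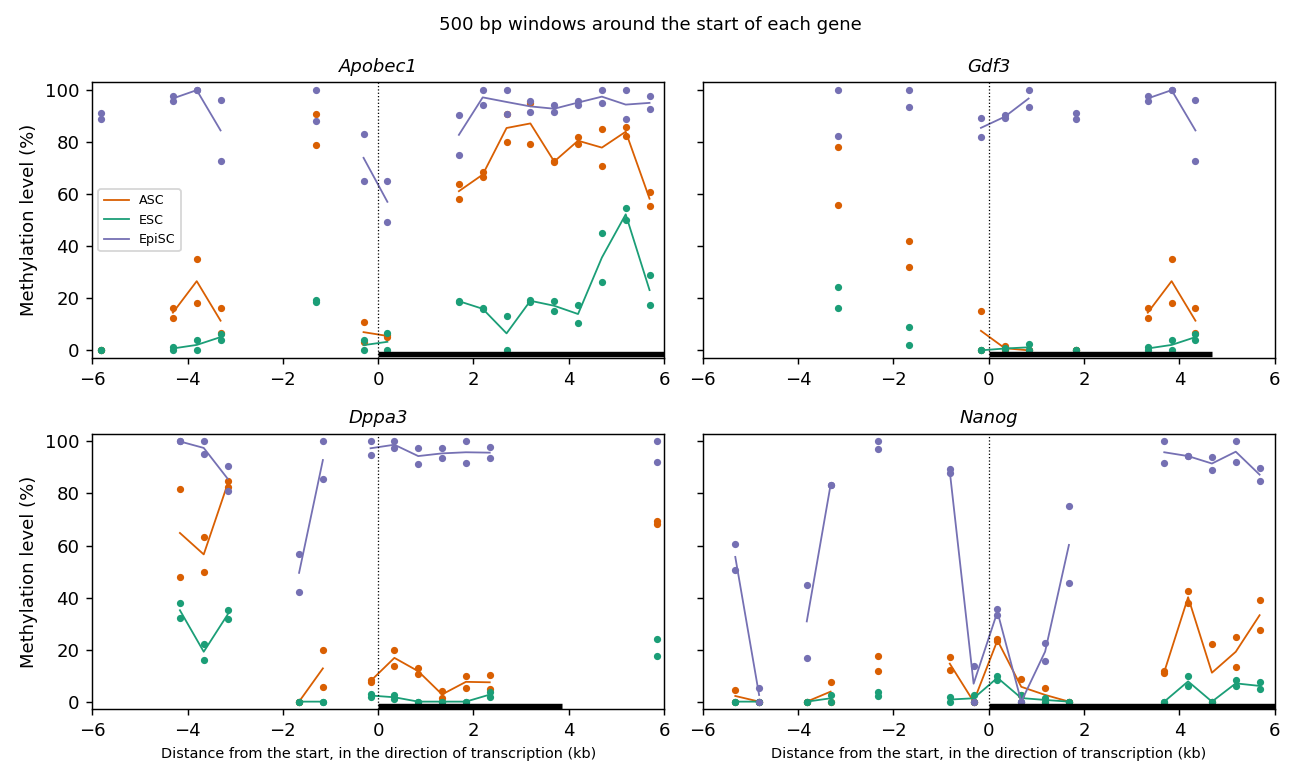
Methylation level (%) in 500 bp windows with at least 10 observations in every library, against the distance from the start of each gene in the direction of transcription (kb). Points are libraries, lines join means of adjacent windows, the dotted line is the start and the black bar is the gene. EpiSCs dip at the Nanog start to between 0% and 13.8% in the window before it, stay above 80% across the start of Gdf3 and above 90% across that of Dppa3, and ASCs rise inside Apobec1.

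Between the genes, 5 of 6 neighbouring intervals from Mfap5 to Slc2a3 had enough observations, and all 5 were called in each of the 3 comparisons. Over the genome 70.2% of 15455 intervals were called lower in ASCs than in EpiSCs, 97.3% higher in ASCs than in ESCs and 99.4% higher in EpiSCs than in ESCs. The interval between Dppa3 and Nanog (122630273 to 122706567, 869 CpG sites) read 39.7% and 39.2% in the ASC libraries, 9.89% and 10.8% in the ESC libraries and 89.5% and 88.1% in the EpiSC libraries. Its difference between ASCs and EpiSCs was -49.36 points (adjusted p = 1.07e-32, quasi-binomial model). The interval between Gdf3 and Dppa3 read 52.9% and 61.7% in ASCs. The interval between Nanog and Slc2a3 read 39.0% and 46.9% in the ASC libraries, against 76.1% and 81.0% in the EpiSC libraries. The short interval between Apobec1 and Gdf3, with 9 sites and 27 to 84 observations, was not tested and read 65.0% and 62.3% in ASCs. The promoter of Apobec1 and the body of Gdf3, both low in ASCs, were therefore separated by sequence that was not.

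In windows of 2 kb, 181 of 250 in the locus were tested. Of these, 148 were called lower in ASCs than in EpiSCs, 139 higher in ASCs than in ESCs and 172 higher in EpiSCs than in ESCs, and none in the opposite direction. Over the genome the shares were 53.5%, 91.1% and 96.5% of 445422 windows. ASCs had a median of 55.4% over the windows of the locus, ESCs 15.3% and EpiSCs 92.6%, against 69.2%, 19.8% and 92.1% over all windows. ASCs read under 20% while EpiSCs read over 80% in 14 of the 181 windows (7.73%), against 1.55% of all windows. By position, between the Apobec1 start and the 3′ end of Slc2a3, 46 of 47 windows were called lower in ASCs than in EpiSCs, with a median ASC level of 35.4%. In the 7 windows of the Apobec1 gene that median was 64.7%, with 5 called, and in the 54 windows before Apobec1 it was 61.7%, with 43 called. In the 73 windows from the 3′ end of Slc2a3 to the end of the locus it was 56.8%, with 54 called. ASCs read under 20% in 14 of the 47 windows and in 17 of these 73, against 6.54% of all windows. Some of the 17 were low in every group. These boundaries were set at gene ends after the levels had been seen.

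**Figure D4:**
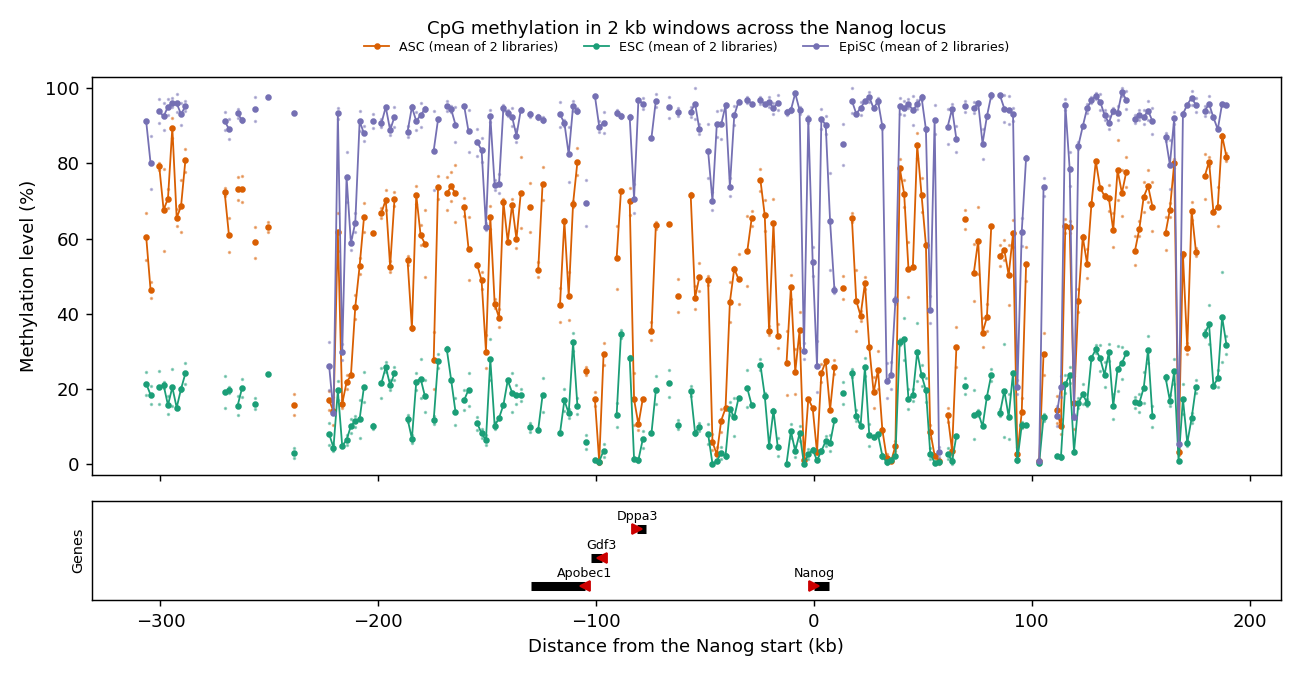
Methylation level (%) in 2 kb windows with at least 40 observations in every library, against the distance from the Nanog start (kb), with lines for means of 2 libraries and small points for libraries. Black bars below are the 4 genes and red arrowheads are their starts. EpiSCs run near the top with narrow dips and ESCs near the bottom. ASCs range from 0.513% inside Gdf3 to over 80%, as at the ends of the locus and in a window inside Apobec1.

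The 2 kb windows that hold the member starts were all called lower in ASCs than in EpiSCs, as were 53.5% of all windows. At Dppa3 the window read 9.06% and 11.9% in ASCs against 97.2% and 96.8% in EpiSCs. The window of the Nanog start read 14.7% and 15.0% in ASCs against 57.7% and 50% in EpiSCs. At the Gdf3 start the values were 26.3% and 32.1% against 93.6% and 88.1%, and at the Apobec1 start 23.6% and 25.8% against 63.2% and 75.6%. In ASCs these last windows lay above the promoters of the same genes. The Gdf3 start window was also called higher in ASCs than in ESCs, by 25.72 points (adjusted p = 9.64e-09, quasi-binomial model), and the other 3 were not, against 91.1% of all windows called.

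Of the 5 windows with the largest difference between ASCs and EpiSCs, 4 are described. Of these, 1 lay inside Gdf3 (122608001 to 122610000), 1 held the Dppa3 start and 2 lay in the annotated span of Slc2a3, a glucose transporter gene. The Gdf3 window read 1.03% and 0% in the ASC libraries, 0.407% and 0.733% in the ESC libraries and 88.4% and 91.2% in the EpiSC libraries. There ASCs and ESCs differed by -0.06 points (adjusted p = 0.979, quasi-binomial model). In the Slc2a3 span, the windows starting at 122762001 and 122770001 lay between 1.79% and 4.55% for ASCs and between 88.0% and 95.7% for EpiSCs.

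Low stretches were read from 500 bp windows, as runs in which both libraries of a group stayed under 25% with at least 10 observations in every library. A run could cross 1 window without that depth, which then counted in its length. Of 1000 windows, 547 had that depth. ASCs had 46 low stretches with 66 kb in all, ESCs had 126 with 213.5 kb and EpiSCs had 16 with 16.5 kb. Around the members, ASC stretches ran for 2.5 kb at the Gdf3 start and 4.5 kb over the Dppa3 start and most of the gene. Others were 3.5 kb just upstream of Nanog (122702001 to 122705500) and 3 kb over the Nanog start. With a limit of 20% the Dppa3 stretch shrank to 2 kb inside the gene with 2 pieces of 0.5 kb before it, and that over the Nanog start split into 1 and 1.5 kb. With at least 20 observations the Dppa3 stretch was 2.5 kb, and 1 and 0.5 kb were left of the one upstream of Nanog. Between the Apobec1 start and the end of Nanog, EpiSCs had 3 low stretches, which lay at Nanog or less than 6 kb before it and covered 0.5, 0.5 and 1 kb. The 1 kb stretch followed the Nanog start within intron 1, where ASCs read 3.98% ± 0.20 and EpiSCs 11.4% ± 5.37.

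Other protein-coding genes of the locus varied. Slc2a3 was low in ASCs (0% and 1.14%) and ESCs (0.621% and 1.53%) and partly methylated in EpiSCs (36.0% and 32.1%), and its promoter was called lower in ASCs than in EpiSCs (adjusted p = 1.06e-05, quasi-binomial model). Mfap5, for a microfibril protein, read 47.8% and 54.8% in ASCs, and C3ar1, for a complement receptor, read 56.5% and 66.7%. Both were above 86% in EpiSCs and were not tested. Rimklb (up to 11.7% in any library) and the transcription factor gene Foxj2 (up to 7.45%) were low in every library and were not called. Necap1, an endocytosis gene, differed between the ASC libraries, at 12.5% and 31.7%, and was not called.

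Genes that work with the members were taken from lists and tested at their promoters. Of the 22 pluripotency genes, 17 were tested, and 4 were called lower in ASCs than in EpiSCs and 5 higher in EpiSCs than in ESCs, or 23.5% and 29.4%, both under the shares of 34.5% and 52.9% over all promoters. None was called between ASCs and ESCs, where 35.1% of all promoters were called higher in ASCs. The median difference of ASCs from EpiSCs was -6.89 points, against -11.70 over all promoters tested. Zfp42 (Rex1) read 0% in both ASC libraries and 94.6% and 97.8% in EpiSCs, and Dppa5a read 0% in both ASC libraries and 96.4% and 90.2% in EpiSCs. Tcl1 and Nr0b1 were also called in both comparisons, and Prdm14 in that of EpiSCs with ESCs alone. Pou5f1 and Sox2, whose proteins act with NANOG, read at most 1.32% in every library.

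Among the 18 genes of NODAL and GDF signalling, 15 were tested, with 4 called lower in ASCs than in EpiSCs, 4 higher in EpiSCs than in ESCs and 1 higher in ASCs than in ESCs. These are 26.7%, 26.7% and 6.67% of those tested, all under the 34.5%, 52.9% and 35.1% over all promoters. The median difference of ASCs from EpiSCs was -7.56 points, against -11.70 over all promoters. Those called against EpiSCs were the ligand Nodal (1.37% and 0% in ASCs, 26.0% and 20.9% in EpiSCs), Gdf1, the NODAL inhibitor Lefty2 (12.5% and 10.3% against 79.1% and 94.1%) and Gdf15. The co-receptor gene Tdgf1 read at most 3.31% in every library.

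Of the 8 deaminases and their partners, 6 were tested, and Apobec2, Apobec3, Apobec4 and the RNA-binding partner Rbm47 were called lower in ASCs than in EpiSCs, as well as higher in EpiSCs than in ESCs. These are 4 of 6 in each comparison, against 34.5% and 52.9% of all promoters. Apobec3 read 0% in both ASC libraries and 89.9% and 91.4% in EpiSCs. Apobec4 differed from it, with 67.4% and 65.7% in ASCs, and was the 1 gene of the list called higher in ASCs than in ESCs, or 16.7% of those tested, against 35.1% of all promoters. The list's median difference of ASCs from EpiSCs was -33.97 points, against -11.70 over all promoters. All 6 genes on the DNA methylation list around Dppa3 were tested, and 2 were called lower in ASCs than in EpiSCs, Uhrf1 (8.60% and 8.85% against 33.9% and 43.8%) and the methyltransferase cofactor gene Dnmt3l (65.0% and 73.1% against 91.4% and 94.4%). Both were called higher in EpiSCs than in ESCs, and Dnmt3l was also called higher in ASCs than in ESCs. The 2 of 6 compare with 34.5% and 52.9% of all promoters, the 1 of 6 with 35.1%, and the list's median difference of -11.74 points with -11.70.

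Promoters most like those of Nanog and Dppa3 were sought over 16983 other protein-coding genes by the root mean square difference over the 6 libraries. Only the level of the whole promoter window was compared, so the profiles along the promoters need not be alike. For Nanog they were F8 (1.26 points), Jak3 (1.61), Chrdl1 (1.64), Suv39h1 (1.71) and Cldn7 (1.72). For Dppa3 they were H2-M5 (1.35 points), Zfp819 (1.44), Prss48 (1.51), Jade1 (1.84) and 1700067K01Rik (2.17). The 3 nearest to Nanog that lie on chromosome X are F8, Chrdl1 and Suv39h1, and F8 read 3.74% in ASCs, 0% in ESCs and 50% in EpiSCs as group means.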

How the data were processed

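Post-bisulfite adaptor tagging libraries, in which adaptors are added after conversion, were sequenced by the authors for 2 replicates each of ASCs, ESCs and EpiSCs. According to the study's methods and processing notes, reads were trimmed with Trim Galore, aligned to GRCm38 (mm10) with Bismark 0.16.3, freed of duplicates and summed per CpG over both strands with MethPipe, of a version not given in the sources used here. Per CpG and library, the deposited tables give the level as a fraction of reads. A second deposited column holds the coverage as a raw count of reads. The labels and the study give different read lengths.

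Methylated reads were recovered as the product of both columns, which was within 0.000115 of a whole number, and summed over regions on chromosomes 1 to 19 and X with gene models of GENCODE M21, with 1 transcript per gene. Sites not listed in a library were left out there. Coordinates count from 1. A quasi-binomial logistic model of methylated and unmethylated reads with group as the term was fitted across all 6 libraries for each kind of region, with the dispersion moderated by limma 3.58.1 in R 4.3.3 and p-values adjusted by Benjamini-Hochberg over all regions of that kind. Regions needed 40 observations in every library, and calls needed an adjusted p under 0.05 and 20 percentage points. The 95% Wilson interval of a 50% level at 40 observations runs from 35.2% to 64.8%. The upper limit for a level of 0% is 3 observations of the total. Intervals and limits cover counting error only, and observations on 1 read are not independent. The model was tested on simulated data, and the outcome is not given here. Python 3.11.15 with numpy 2.4.6, pandas 2.3.3 and scipy 1.17.1 was used.

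The members and lists were chosen with earlier results of these data known. Named were the 4 genes, other protein-coding genes of the locus, the windows with the member starts, 4 of the 5 with the largest difference of ASCs from EpiSCs, the 3 lowest in EpiSCs and the 3 highest in ESCs, the listed genes that were called, and the 5 promoters most like those of Nanog and Dppa3 with at least 20 observations. Other sites and windows named, and the uncalled Pou5f1, Sox2 and Tdgf1, were chosen after their values were seen.

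Replicates were compared on chromosome 6 over sites with at least 5 reads in both. The chi-square statistic per site averaged 1.13 for ASCs, 1.12 for ESCs and 1.11 for EpiSCs. The average that sampling alone would give is not given, so these per-site values alone do not settle whether replicates differ by more than sampling. Over regions, the median moderated dispersion of the main fits was 1.42 for promoters, 1.70 for gene bodies, 1.42 for intervals and 1.39 for 2 kb windows. Independent observations would give about 1. The part of this that comes from observations on the same read was not tested. Alternatives were other minimums and differences, other promoter windows, limma on M values, Fisher's exact test, a replicate block, smaller or shifted windows and leaving out each library. Some results that the rule would name are not reported here.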

Additional observations from a re-analysis of the deposited data

How the results depend on the processing

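No difference reversed with a library left out, in another promoter window or as a mean over single sites. The other settings kept the same levels or gave only counts, so a reversal was not possible there. Of 694 recomputed values, 659 were counted as unchanged. Tested differences then kept their direction and call, counts stayed within a preset factor of the main count, and untested differences shifted by less than the SD. Without a minimum difference, the gene bodies called higher in ASCs than in ESCs rose from 1 to 4 of 4 and the promoters from 0 to 1 (Nanog). With a minimum of 100 observations no member promoter was tested, so 0 were called in either comparison with EpiSCs. With 10 observations, chosen after seeing the data, or a promoter of 2000 bp upstream plus the first 500 bp, 4 of 4 were called in both, against 2. A difference of 40 points left 3 of 4 gene bodies called lower in ASCs than in EpiSCs, without Apobec1, 2 intervals called for ASCs over ESCs and 1 called lower in ASCs than in EpiSCs, and of the 2 kb windows 81 and 56. With a minimum of 100 observations 56 windows were tested, with 33 in which ASCs exceeded ESCs, 44 lower in ASCs than in EpiSCs and 47 higher in EpiSCs than in ESCs. A higher minimum tests fewer regions by construction. In 500 bp to each side of the start, the Nanog promoter lost both calls, with -4.31 points for ASCs against EpiSCs and 13.67 for EpiSCs against ESCs.

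Leaving out 1 library at a time changed no call of a member. The windows called lower in ASCs than in EpiSCs were then 143 to 153, those higher in ASCs than in ESCs 138 to 151 and those higher in EpiSCs than in ESCs 172 to 186, and 5 to 6 intervals were called in each comparison. The ASC low stretches covered 58 kb at a limit of 20% and 45.5 kb with 20 observations per window, and those of ESCs 177 kb and 110 kb. Replicate numbers are shared by the groups, but libraries with the same number did not deviate together over 2 kb windows, with correlations of -0.0062, 0.0023 and -0.00065. With a replicate block, 148 windows were again called lower in ASCs than in EpiSCs, 139 higher in ASCs than in ESCs and 172 for EpiSCs over ESCs, and no call of a member changed. Depth limits the promoters of Dppa3 and Gdf3 and all single sites, and 2 libraries per group give a rough spread.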

Other observations

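The windows of the locus that read lowest in EpiSCs were low in every group. They started at 122810001 (84 CpG sites), at 122764001 (78 sites) and at 122874001, which holds the Necap1 start, and their levels lay between 0% and 5.83% in all 6 libraries. The window at 122764001 adjoined the one at 122762001, which read 95.5% and 88.0% in EpiSCs.

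The windows highest in ESCs lay at the far end of the locus, around and beyond the 3′ end of Necap1. The window at 122894001 read 27.2% and 51.0% in the ESC libraries, 87.9% and 86.9% in ASCs and 95.7% and 96.2% in EpiSCs. The windows at 122888001 and 122886001 read between 31.9% and 42.4% in ESCs.

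The interval between Slc2a3 and Foxj2 was low in EpiSCs for an interval, at 37.2% and 40%, and ASCs read 21.9% and 22.1% there. The difference of -16.60 points had an adjusted p of 3.89e-11 in the quasi-binomial model and was under 20 points, so it was not called. This interval contains the window at 122810001, which was low in every group. That window held 84 of its 242 CpG sites, and 389 of 1119 and 374 of 1011 observations in the EpiSC libraries. The interval without that window was not tested.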
